A study of Mus musculus with 6 samples.

Results

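Mucins are glycoproteins with long stretches of serine and threonine, and the enzymes described here build and finish the sugar chains carried by them and by many other proteins of the secretory route. The set was taken from the gene names alone and holds the mucins (Muc), the enzymes that start an O-glycan (Galnt, Galntl), those that make its cores and branches (C1galt1, C1galt1c1, Gcnt), those that extend it (B3gnt, B3galt, B4galt), the fucosyltransferases (Fut) and the sialyltransferases (St3gal, St6gal, St8sia). It comprised 86 of the 34745 genes in the deposited table, 13 mucins and 73 genes of glycosyltransferases or their helper. The rule uses gene names and no measured value, although it was written with earlier results of these data known.

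An O-glycan begins when a Galnt enzyme links N-acetylgalactosamine to serine or threonine in the Golgi. C1galt1, which needs the chaperone encoded by C1galt1c1, then adds galactose to make core 1, Gcnt enzymes branch this core, and B3gnt and B4galt enzymes alternate to extend it as lactosamine. Fucose and sialic acid cap the chains and form blood group and Lewis structures. Several family members act mainly on N-glycans or glycolipids, such as Fut8, which adds the core fucose of N-glycans, and St3gal5, which makes the ganglioside GM3. In the prostate, secretory epithelial cells make most of the glycoproteins of the prostatic fluid.

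The prostates came from male C57BL/6 mice that were 6 to 8 weeks old at the start. In the T + E2 group (3 mice) a subcutaneous slow-release pellet of testosterone and estradiol, mixed at 10 to 1, was renewed monthly over 12 weeks. The CON group (3 mice) had the skin incision and suture without a pellet, and the sources name no genetic change in either group. Total RNA of the whole tissue was sequenced, so that fewer cells of a type and less RNA per cell cannot be told apart, and the lobes taken are not given in the sources used here.

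Reads counted on genes numbered 14819273 to 16026544 per mouse in the CON group against 14816146 to 16555549 in the T + E2 group, and 3 counts corresponded to 0.181 to 0.202 counts per 1000000 (CPM) of the unscaled library totals. CPM values of genes are scaled by the trimmed mean of M values (TMM). The prostate label was borne out by Hoxb13 and Krt8, which were detected in every mouse and did not pass the test. Of 13 markers of luminal epithelium, Pbsn and Tgm4 were downregulated (3.38% of all tested genes were) and Msmb and Epcam were upregulated (4.27%). The summed level of the 13 markers ran from 52248 to 63156 CPM in the CON group against 18683 to 25594 CPM in the T + E2 group. Markers of the urothelium, the lining of bladder and urethra, summed to 423 to 643 CPM in the CON group against 1374 to 1703 CPM in the T + E2 group, and Upk3a had no count in any CON mouse. The 8 seminal vesicle markers summed to 10326 CPM in CON mouse 2 and 643 CPM in T + E2 mouse 2, against 0.629 to 4.11 CPM in the other mice, and the 4 fat markers to 331 CPM in CON mouse 2 against 42.9 to 93.9 CPM elsewhere. The part of these tissues in the differences below was not tested, and for many of the named genes values without these mice are given.

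Of the 86 genes, 5 had no count in any mouse (Galntl5, Gcnt7, Muc5ac, Muc6 and St6galnac1), 64 passed the filter on low counts and were tested, and 17 had counts but were too low for a test. Adjusted p-values throughout come from edgeR (quasi-likelihood test), with Benjamini-Hochberg correction over all 15580 tested genes, and a gene was called upregulated or downregulated at an adjusted p under 0.05 with a log2 fold change beyond 1 in size. Fut4, Galnt15 and Gcnt4 were upregulated (4.69% of the tested members, against 4.27% of all tested genes), and Muc19, Fut9, B3gnt7, Fut2 and Fut8 were downregulated (7.81%, against 3.38% of all tested genes). Without the fold threshold, 13 members rose (20.3%, against 10.4% of all tested genes) and 6 fell (9.38%, against 9.25%). The 2 groups did not overlap in CPM for 36 tested members, 23 higher and 13 lower in the T + E2 group (56.3%, against 40.7% of all tested genes). The median log2 fold change was 0.16 over the tested members and -0.0021 over all tested genes. Gcnt4 and St6gal2 passed the filter only through the group in which they were higher, so these counts describe the tested members and not all 86. Leaving out mouse 2 of both groups, an alternative chosen after seeing the data, gave the same 5 downregulated members and 8 members that rose at any fold. Of the upregulated members only Fut4 remained, Galnt15 and Gcnt4 lost their calls, and B3gnt2, B3gnt3 and Galnt9 gained one.

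**Figure D1:**
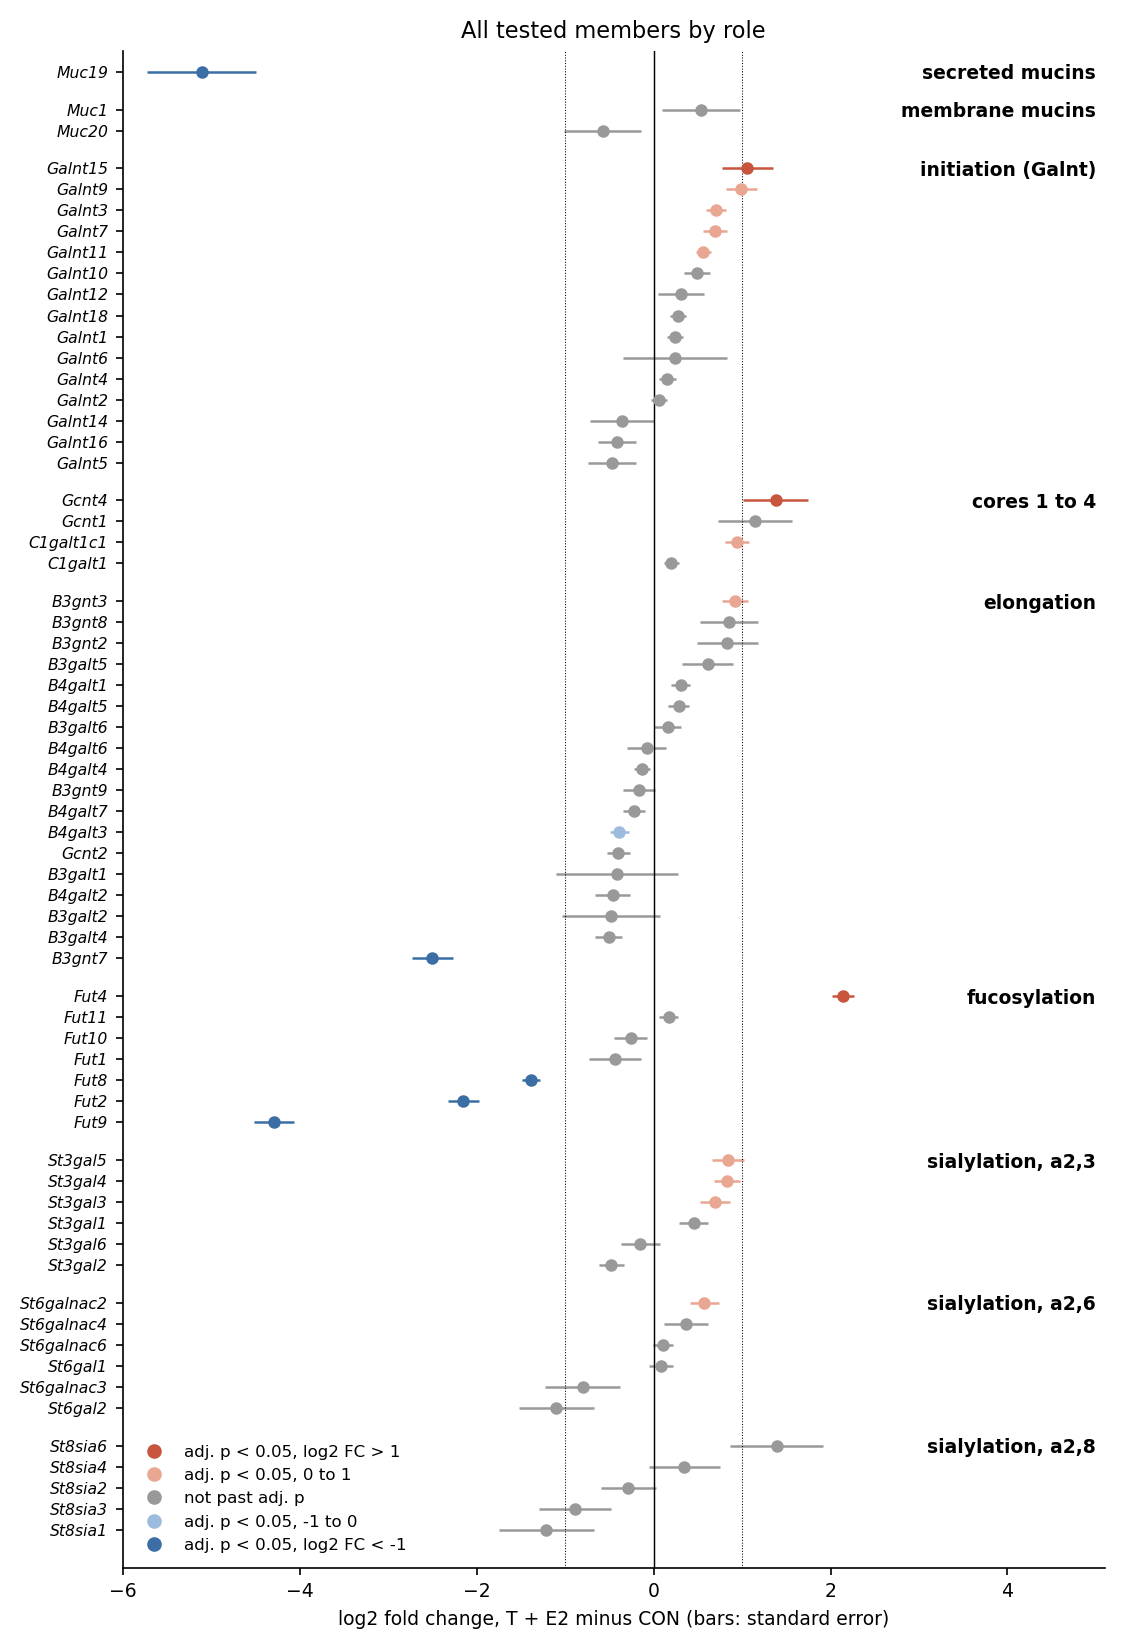
Log2 fold change (T + E2 minus CON, 3 mice each) of the 64 tested members, grouped by role, with standard errors as bars. Colours give the adjusted p and the size of the change, and the dotted lines mark a log2 fold change of 1 in either direction. Muc19, Fut9, B3gnt7, Fut2 and Fut8 lie left of the lower line and Fut4 stands apart from the other fucosyltransferases on the right.

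The fucosyltransferases held 4 of the 8 genes past both thresholds. Of 7 tested fucosyltransferases, 1 was upregulated and 3 were downregulated (4.27% and 3.38% of all tested genes). Per length, Fut2, the secretor enzyme that adds alpha1,2-linked fucose in secretory epithelia, was the most abundant of them in every mouse. Its level was 77.7, 74.7 and 93.3 FPKM (fragments per kilobase of gene and 1000000 counted) in the CON mice against 18.3, 14.2 and 21.6 FPKM in the T + E2 mice. Every CON mouse stood above every T + E2 mouse, and the mean fell from 232 ± 32.5 to 52.4 ± 10.4 CPM (SD, n = 3 mice each), with a log2 fold change of -2.15 (SE 0.17, adjusted p = 0.000152). The gene lies on the minus strand at chr7:45648595-45666308 (GRCm38).

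Fut9 and Fut4 both add alpha1,3-linked fucose and make the Lewis X structure, and they moved in opposite directions. Fut9 was at 75.8, 49.7 and 56.7 CPM in the CON mice against 3.67, 3.29 and 2.34 CPM in the T + E2 mice (log2 fold change -4.29, SE 0.22, adjusted p = 1.95e-05). Fut4 was at 5.76, 5.72 and 5.72 CPM in the CON mice, which were nearly identical, and at 23.7, 28.3 and 24.0 CPM in the T + E2 mice (log2 fold change 2.14, SE 0.12, adjusted p = 3.51e-05). Neither gene's groups overlapped. The ratio of Fut4 to Fut9, taken per length in each mouse, was 0.344, 0.520 and 0.456 in the CON group against 29.3, 38.9 and 46.5 in the T + E2 group, so that Fut9 was the higher of the pair in every CON mouse and Fut4 in every T + E2 mouse. Fut9 is also known from neural tissue, and 4 of 6 neural markers were downregulated (Tubb3, Elavl4, Snap25 and Sox10), against 3.38% of all tested genes. The 6 markers summed to 162 to 199 CPM in the CON mice against 40.7 to 97.8 CPM in the T + E2 mice. The neural marker sum was lowest in T + E2 mouse 1, in which Fut9 was the highest of its group. The part of neural cells in the fall of Fut9 was not tested. Fut4 is known from leukocytes as well. None of the 7 tested leukocyte markers passed the test. The 6 plasma cell markers summed to 317 to 423 CPM in the CON mice against 570 to 784 CPM in the T + E2 mice. Of these markers, 1 of 5 tested was called upregulated, against 4.27% of all tested genes. The part of these cells in the rise of Fut4 was not tested. Fut9 lies on the minus strand at chr4:25609332-25800244 and Fut4 on the minus strand at chr9:14748459-14752122.

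Fut8, which adds the core fucose of N-glycans, was at 125, 117 and 139.8 CPM in the CON mice against 52.4, 46.5 and 47.7 CPM in the T + E2 mice. The groups were far apart compared with their spread (127 ± 11.4 and 48.9 ± 3.13 CPM, log2 fold change -1.38, SE 0.10, adjusted p = 0.000114). Fut11, Fut1 and Fut10 did not pass the test (adjusted p between 0.300 and 0.365), and Fut7, a leukocyte enzyme, had at most 0.314 CPM in any mouse. Summed over the 8 genes, the fucosyltransferases gave 120.4, 114 and 137 FPKM in the CON mice against 44.3, 39.8 and 48.5 FPKM in the T + E2 mice. The share of Fut2 in this sum was 66.1% ± 1.89 in the CON group against 40.5% ± 4.58 in the T + E2 group. The share of Fut4 was 1.29% ± 0.139 and 15.6% ± 3.14, that of Fut8 23.0% ± 0.564 and 24.1% ± 1.93, and that of Fut9 3.02% ± 0.748 and 0.422% ± 0.111. Fut2, Fut8, Fut9 and Fut4 kept their calls in every alternative and every leave-out run, mouse 2 of both groups included.

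**Figure D2:**
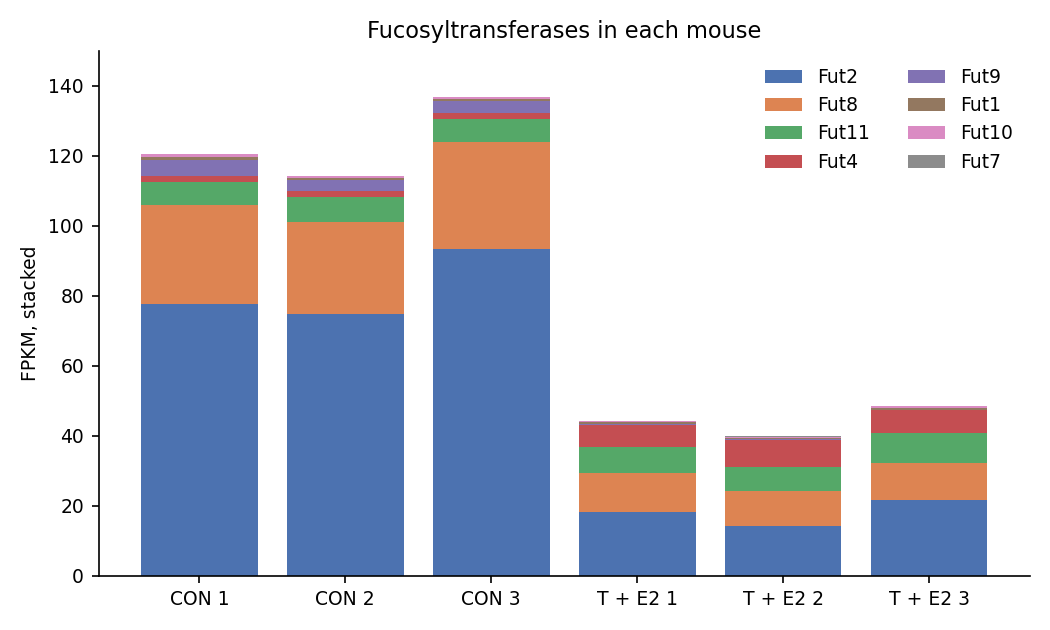
Stacked FPKM of the 8 fucosyltransferases in each of the 6 mice, 1 bar per mouse. The bars of the CON mice reach 114 to 137 FPKM and are made mostly of Fut2 and Fut8, and those of the T + E2 mice reach 39.8 to 48.5 FPKM with a larger part of Fut4.

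The promoters of the genes past both thresholds are shown because the treatment was with 2 steroid hormones, whose receptors bind short DNA elements. RefSeq promoter sequences (GRCm38.p6, 250 bases before to 50 bases after the start) were matched to 61 of the 86 members and 5 of the 8 genes, and the sequences of 4 of these are printed from 5′ to 3′ on the strand of the gene, with matches in capitals. The motifs were searched on both strands. The androgen response half-site, spelled AGAACA, occurred in 19.0% of all 32851 promoters of this length, and the oestrogen response half-site, spelled AGGTCA, in 16.3%. The Sp1-type box, spelled GGGCGG, occurred in 35.7% and the TATA element, spelled TATAAA, in 13.6%. No motif found overlapped another. Fut4 (chr9:14752073-14752372, minus strand) held AGAACA from base 1 to base 6 after the start base, and Fut8 (chr12:77237854-77238153, plus strand, nearest of 4 entries to the deposited start) held the Sp1-type box from base 3 to base 8 on the opposite strand. B3gnt7 (chr1:86302971-86303270, plus strand) held 2 Sp1-type boxes. Galnt15 (chr14:32028853-32029152, plus strand) held 1 oestrogen half-site on the opposite strand, 63 to 58 bases before the RefSeq start. For these 2 genes the RefSeq start differs from the deposited one. The B3gnt7 window lies wholly within the deposited gene (chr1:86302832-86307305). The deposited Galnt15 gene begins at 32028989, so the half-site lies inside that gene.
Fut4: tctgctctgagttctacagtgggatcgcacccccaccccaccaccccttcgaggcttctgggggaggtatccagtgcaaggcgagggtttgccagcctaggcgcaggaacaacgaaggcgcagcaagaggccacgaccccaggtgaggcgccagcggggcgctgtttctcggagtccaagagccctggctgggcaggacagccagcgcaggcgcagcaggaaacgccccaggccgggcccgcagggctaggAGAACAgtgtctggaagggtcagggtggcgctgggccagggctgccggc
Fut8: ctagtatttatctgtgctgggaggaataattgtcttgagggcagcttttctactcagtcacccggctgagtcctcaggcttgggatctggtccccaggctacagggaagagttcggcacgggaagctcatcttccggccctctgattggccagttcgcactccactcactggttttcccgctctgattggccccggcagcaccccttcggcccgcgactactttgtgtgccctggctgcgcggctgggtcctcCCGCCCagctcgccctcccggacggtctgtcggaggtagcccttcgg
B3gnt7: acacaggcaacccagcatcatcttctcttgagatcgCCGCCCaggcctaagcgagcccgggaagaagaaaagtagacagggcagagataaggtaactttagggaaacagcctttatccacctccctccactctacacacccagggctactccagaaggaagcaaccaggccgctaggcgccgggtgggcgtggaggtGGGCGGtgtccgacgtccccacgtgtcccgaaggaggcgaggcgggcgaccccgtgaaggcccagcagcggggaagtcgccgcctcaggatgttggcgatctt
Galnt15: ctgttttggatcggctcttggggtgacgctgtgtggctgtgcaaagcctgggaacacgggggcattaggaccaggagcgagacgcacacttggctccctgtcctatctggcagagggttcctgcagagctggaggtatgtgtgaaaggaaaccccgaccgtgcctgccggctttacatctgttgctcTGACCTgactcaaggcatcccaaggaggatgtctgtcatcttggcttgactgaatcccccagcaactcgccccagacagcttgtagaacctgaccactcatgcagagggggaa
The full palindromes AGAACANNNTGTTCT and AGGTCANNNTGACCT, which occur in 0.00913% and 0.0213% of all promoters, were found in none of the 5 windows, and neither was the TATA element. Such matches describe the letters of these windows and were not tested as binding sites.

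Among the secreted mucins, which form gels, Muc19 was the most abundant in the CON group, and it showed the largest log2 change of the 64 tested members. It is a gel-forming mucin known from salivary glands. Its level was 128, 42.5 and 73.0 CPM in the CON mice (1934, 647 and 1161 counts) and 1.25, 0.974 and 4.87 CPM in the T + E2 mice (18, 16 and 73 counts). The CON mice differed among themselves by more than for the fucosyltransferases (81.2 ± 43.4 CPM), yet the lowest CON mouse stood well above the highest T + E2 mouse (2.36 ± 2.18 CPM over the group), with a log2 fold change of -5.11 (SE 0.62, adjusted p = 0.0012). The value was -5.03 without mouse 2 of both groups (adjusted p = 0.00561) and -6.19 without T + E2 mouse 3, which held most of the T + E2 counts (adjusted p = 0.00197). Muc19 lies on the plus strand at chr15:91838326-91934555 and shares 95 of its 9105 exon bases with Smgc, a salivary gland gene on the same strand, so reads there could be counted for either. Smgc was downregulated too, from 8.15, 4.27 and 6.22 CPM to 0.415, 0.122 and 0.734 CPM (log2 fold change -3.87, adjusted p = 0.00152). With exon bases shared, the fall of Smgc is not counted here as an independent change. GENCODE release M21 types Muc19 as a processed transcript, and whether the counted reads code for the mucin was not tested.

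The other gel-forming mucins were near or below the detection limit. Muc5ac and Muc6, the gastric mucins, had no count in any mouse. Muc2, the intestinal mucin, had 6, 8 and 4 counts in the CON mice against 9, 13 and 15 in the T + E2 mice, and Muc5b, of airways and salivary glands, had 2, 1 and 0 against 5, 10 and 6. For both the T + E2 counts were the higher ones without overlap in CPM, at levels too low to be tested.

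The membrane mucins, which stay anchored at the cell surface, were low and none of the 2 tested passed. Muc1, the main membrane mucin of glandular epithelia, was at 1.13, 1.45 and 0.943 CPM in the CON mice against 0.968, 1.28 and 2.87 CPM in the T + E2 mice (log2 fold change 0.54, SE 0.44, adjusted p = 0.422), with T + E2 mouse 3 alone above the CON mice. Muc20 was at 2.65, 2.50 and 2.07 CPM against 2.84, 1.22 and 0.801 CPM (log2 fold change -0.58, adjusted p = 0.384), and its groups overlapped. Muc20 shares 627 exon bases with Muc4 on the opposite strand. Muc3a, an intestinal type of membrane mucin, had 123 counts in CON mouse 2 and between 4 and 8 in each other mouse. This mouse also carried the seminal vesicle and fat transcripts, whose part in the Muc3a value was not tested. Muc3, Muc4, Muc13, Muc15 and Muc16 had between 0 and 11 counts in any mouse. Muc4 was listed with 8, 11 and 4 counts in the CON mice against 4, 10 and 1 in the T + E2 mice. Muc16 ran from 0 to 10 counts, Muc13 from 0 to 6, Muc3 from 0 to 4 and Muc15 from 0 to 3, and the groups overlapped for all 5 genes.

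**Figure D3:**
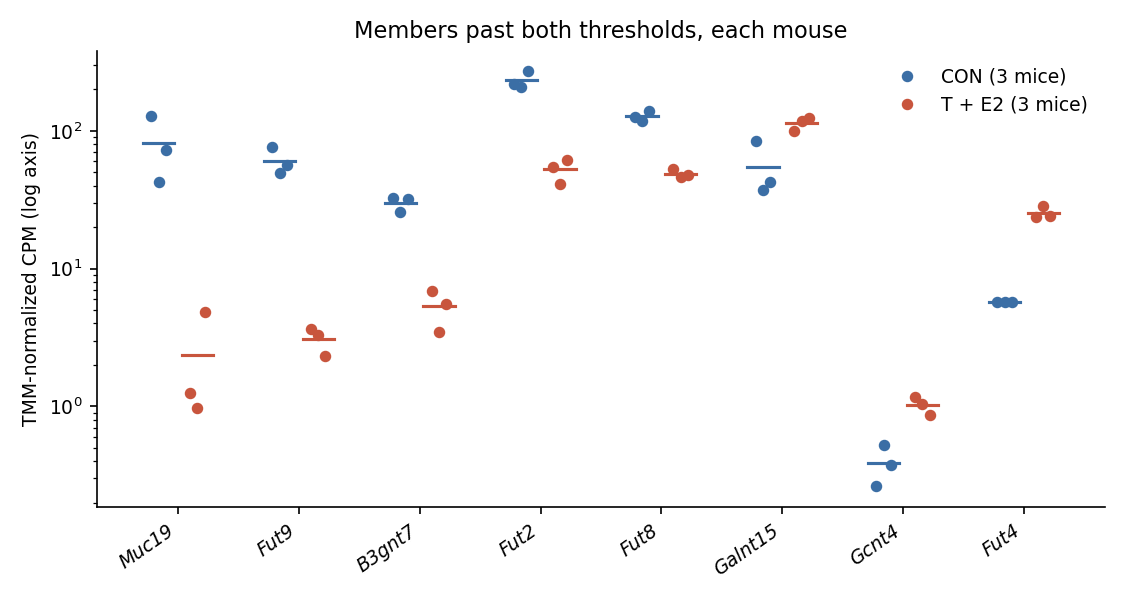
TMM-scaled CPM on a log axis in each mouse for the 8 members past both thresholds, with group means as lines (3 CON and 3 T + E2 mice). The groups do not overlap for any of the 8 genes, which were picked by the test, against 40.7% of all tested genes. The gap is widest for Muc19 and Fut9, and Gcnt4 lies near the detection limit.

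The Galnt enzymes, which place the first sugar, rose in 5 of 15 tested genes and fell in none, where 10.4% of all tested genes rose and 9.25% fell. Galnt15 was the member past both thresholds, at 84.6, 37.1 and 42.6 CPM in the CON mice against 98.9, 118 and 124 CPM in the T + E2 mice (log2 fold change 1.06, SE 0.29, adjusted p = 0.0374). CON mouse 1 came close to the T + E2 mice, and the call rested on few mice. The log2 fold change was 1.51 without CON mouse 1 (adjusted p = 0.00106), and the adjusted p was over 0.05 without any 1 of the other 5 mice: 0.0842 without CON mouse 2, 0.117 without CON mouse 3, and 0.0568, 0.101 and 0.0917 without T + E2 mouse 1, 2 and 3.

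Galnt9, Galnt3, Galnt7 and Galnt11 rose by less than the fold threshold. Galnt9, a brain-type enzyme, was at 3.84, 4.14 and 3.40 CPM against 8.30, 6.76 and 7.61 CPM (log2 fold change 0.99, SE 0.18, adjusted p = 0.0072), just under the fold threshold. Galnt3, an epithelial enzyme, was at 34.9, 41.9 and 34.3 CPM against 55.3, 63.5 and 62.3 CPM (log2 fold change 0.70, SE 0.11, adjusted p = 0.00376). Galnt11 was at 31.8 to 34.2 CPM against 46.6 to 51.2 CPM (log2 fold change 0.56, adjusted p = 0.00326), and Galnt7, which adds to sites already started, at 10.9 to 13.9 CPM against 18.2 to 22.0 CPM (log2 fold change 0.69, adjusted p = 0.0105). None of the 4 genes, picked because they passed the test, overlapped between the groups, as was so for 40.7% of all tested genes. Galnt7 did not pass the test without mouse 2 of both groups (adjusted p = 0.0948).

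The 3 most abundant Galnt genes per length did not pass the test. Galnt18 made up 40.4% ± 1.40 of the summed Galnt FPKM in the CON group against 38.3% ± 2.51 in the T + E2 group, with 52.3 to 60.6 FPKM against 61.2 to 71.96 FPKM (log2 fold change 0.27, adjusted p = 0.0653). Galnt10 was at 22.7 to 26.6 FPKM against 30.3 to 40.5 FPKM (log2 fold change 0.49, adjusted p = 0.0544), and for both genes the T + E2 mice lay above the CON mice. Galnt2, a widely expressed enzyme, overlapped, at 19.2 to 22.0 FPKM against 20.96 to 22.1 FPKM (log2 fold change 0.06, adjusted p = 0.673). It shares 3854 of its 4282 exon bases with Gm20388 on the same strand, which had no count in any mouse. How reads on the shared bases were counted is not given, so the level of Galnt2 and its part in the Galnt sum are uncertain. The sum over the 18 genes was 147, 141 and 135 FPKM in the CON mice against 172, 175 and 178 FPKM in the T + E2 mice.

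In the core step, the chaperone gene rose while its client enzyme did not pass the test. C1galt1c1, whose product is needed for an active C1galt1, was at 44.7, 40.0 and 44.6 CPM in the CON mice against 88.3, 93.5 and 67.4 CPM in the T + E2 mice (log2 fold change 0.95, SE 0.13, adjusted p = 0.00248). C1galt1, the core 1 synthase, was at 72.4, 64.9 and 68.5 CPM against 76.8, 78.4 and 80.9 CPM (log2 fold change 0.20, SE 0.09, adjusted p = 0.143). The ratio of chaperone to enzyme, per length, was 2.60, 2.59 and 2.74 in the CON group against 4.84, 5.01 and 3.50 in the T + E2 group, without overlap. C1galt1c1 lies on the minus strand at chrX:38630785-38635087.

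The branching enzymes were present at far lower levels. Gcnt4, a core 2 enzyme, had 4, 8 and 6 counts in the CON mice against 17, 17 and 13 counts in the T + E2 mice (log2 fold change 1.38, SE 0.37, adjusted p = 0.0349). Every leave-out of 1 mouse ended this call (adjusted p from 0.0545 without CON mouse 2 to 0.112 without CON mouse 3), and DESeq2 gave an adjusted p of 0.176. It also shares 535 exon bases with Gm48597 on the opposite strand. Gcnt1, the main core 2 enzyme, was at 1.85, 3.29 and 1.82 CPM against 3.32, 8.34 and 3.67 CPM and did not pass (log2 fold change 1.14, SE 0.42, adjusted p = 0.0933). The T + E2 mice lay above the CON mice for Gcnt1 too, with T + E2 mouse 2 the highest. Without that mouse the log2 fold change of Gcnt1 was 0.59 (adjusted p = 0.3). Gcnt3 had at most 0.553 CPM and B3gnt6, the core 3 enzyme, at most 0.346 CPM in any mouse.

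Chain extension was the step with the most genes, of which 1 of 18 tested rose and 2 fell (10.4% and 9.25% of all tested genes). Gcnt2 and Gcnt7 were counted in this step, and B3gnt6 in the core step. Genes were placed in the step by name, and not all of them act mainly on O-glycans. B3gnt7, an N-acetylglucosaminyltransferase known for extending keratan sulfate and lactosamine chains, was at 32.4, 25.6 and 31.8 CPM in the CON mice against 6.92, 3.47 and 5.54 CPM in the T + E2 mice. The groups lay well apart (29.9 ± 3.81 and 5.31 ± 1.73 CPM), with a log2 fold change of -2.50 (SE 0.23, adjusted p = 0.000346). The gene lies on the plus strand at chr1:86302832-86307305, and an antisense gene that shares 520 of its exon bases had 0 to 2 counts in any mouse. B3gnt3, which extends core 1, moved the other way, from 16.3, 16.1 and 13.3 CPM to 27.2, 24.9 and 34.3 CPM (log2 fold change 0.92, SE 0.15, adjusted p = 0.00457). B4galt3 fell slightly, from 57.1, 57.1 and 55.8 CPM to 46.7, 36.8 and 46.6 CPM (log2 fold change -0.39, SE 0.11, adjusted p = 0.0447). Its adjusted p was over 0.05 without any 1 mouse (0.0549 to 0.111). It shares 791 exon bases with Ppox on the opposite strand, which fell by 0.38 on the log2 scale as well (adjusted p = 0.0259).

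The 3 most abundant extension genes did not pass the test. B4galt1, the main galactosyltransferase of lactosamine chains, was at 25.3 to 27.6 FPKM in the CON mice against 29.0 to 37.7 FPKM in the T + E2 mice (log2 fold change 0.31, adjusted p = 0.0899). B4galt4 gave 13.5 to 15.5 FPKM against 12.6 to 13.3 FPKM (log2 fold change -0.13, adjusted p = 0.361), and its groups overlapped in TMM-scaled CPM. B4galt6 gave 8.15 to 14.7 FPKM against 8.63 to 13.1 FPKM (log2 fold change -0.08, adjusted p = 0.839), with CON mouse 2 the highest of all. The sum over the 21 extension genes was 97.8 to 110.1 FPKM in the CON mice against 97.7 to 116 FPKM in the T + E2 mice, which overlapped. Of the 18 tested genes, 15 did not pass, with log2 fold changes from -0.51 (B3galt4) to 0.85 (B3gnt8).

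Of the sialyltransferases that make alpha2,3 linkages, 3 of 6 rose and none fell (10.4% and 9.25% of all tested genes). St3gal4, which caps lactosamine chains, was at 5.099, 5.85 and 5.91 CPM in the CON mice against 10.03, 9.68 and 10.2 CPM in the T + E2 mice (log2 fold change 0.83, SE 0.15, adjusted p = 0.00634). St3gal5, the GM3 synthase, was at 8.87, 9.86 and 6.41 CPM against 16.3, 15.3 and 13.5 CPM (log2 fold change 0.84, SE 0.18, adjusted p = 0.0148). St3gal3 was at 23.8, 21.5 and 20.7 CPM against 44.9, 27.8 and 34.2 CPM (log2 fold change 0.70, SE 0.17, adjusted p = 0.0256), with T + E2 mouse 1 the highest. The groups did not overlap for these 3 genes, which were picked because they passed the test (40.7% of all tested genes did not overlap). St3gal3 did not pass the test without CON mouse 2 (adjusted p = 0.0706), CON mouse 3 (0.0864), T + E2 mouse 1 (0.0533) or T + E2 mouse 3 (0.0549). St3gal4 and St3gal5 did not pass without mouse 2 of both groups (adjusted p = 0.0534 and 0.0535). St3gal1, which caps core 1, was at 17.0 to 21.9 CPM against 20.9 to 30.1 CPM, overlapped and did not pass (log2 fold change 0.45, adjusted p = 0.0875). St3gal2 was lower without overlap, at 20.9 to 21.7 CPM against 12.2 to 17.4 CPM, and did not pass (log2 fold change -0.48, adjusted p = 0.0520). Summed FPKM over the 6 genes were 18.1, 19.0 and 16.1 in the CON mice against 24.9, 23.1 and 25.5 in the T + E2 mice.

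Of the 6 tested alpha2,6 sialyltransferases, 1 rose and none fell (10.4% and 9.25% of all tested genes). St6galnac2, which adds sialic acid to the first sugar of core 1, was at 10.7, 14.79 and 12.6 CPM in the CON mice against 18.2, 22.2 and 16.3 CPM in the T + E2 mice (log2 fold change 0.57, SE 0.17, adjusted p = 0.0458). The gene did not pass the test without CON mouse 1 or 3 (adjusted p 0.110 and 0.116) or without T + E2 mouse 1 or 2 (0.0880 and 0.137). St6galnac6 and St6gal1, the latter an enzyme of N-glycans, stayed between 10.999 and 13.9 CPM in all 6 mice and did not pass (log2 fold changes 0.11 and 0.09, adjusted p = 0.529 and 0.698).

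None of the 5 tested alpha2,8 enzymes passed. St8sia2, which makes polysialic acid, was at 3.78 to 9.27 CPM over all mice with overlapping groups (log2 fold change -0.29, adjusted p = 0.552). St8sia6 gave 0.440 to 1.52 CPM against 1.52 to 4.38 CPM (log2 fold change 1.39, SE 0.52, adjusted p = 0.101), with T + E2 mouse 2 the highest. Without that mouse the log2 fold change of St8sia6 was 0.84 (adjusted p = 0.333). St8sia3, a neural enzyme, gave 1.82 to 2.78 CPM against 0.553 to 1.77 CPM (log2 fold change -0.89, SE 0.40, adjusted p = 0.163), and was lowest in T + E2 mouse 1. The neural marker sum was lowest in the same mouse, and its part in the St8sia3 values was not tested.

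All 73 genes of glycosyltransferases or their helper were summed per length. The total was 434, 432 and 434 FPKM in the CON mice against 417, 424 and 437 FPKM in the T + E2 mice. The groups overlapped in this total, while their makeup differed. The overlap rests on the helper C1galt1c1, at 28.3 to 31.4 FPKM in the CON mice against 47.0 to 64.0 FPKM in the T + E2 mice. Without it, every T + E2 total lay below every CON total. The fucosyltransferase sum was lower in every T + E2 mouse than in any CON mouse. The sums of the initiation, core and alpha2,3 sialylation genes were higher without overlap. The core sum, which is mostly C1galt1c1, was 39.8 to 43.9 FPKM in the CON group against 61.1 to 77.9 FPKM in the T + E2 group.

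Outside the name pattern, 107 genes that serve the same route were listed, of which 88 were tested. B4galnt2, Ggta1 and Prg4 were upregulated and Fcgbp, Gal3st1, Cd24a and Chst1 were downregulated (4.27% and 3.38% of all tested genes), and at any fold 18 rose and 13 fell (10.4% and 9.25% of all tested genes, the shares against which each list below is to be read). The median log2 fold change was 0.04 over the 88 genes and -0.0021 over all tested genes. B4galnt2 and Ggta1, which add the terminal sugars of the Sda and alpha-Gal structures, had the largest rises. B4galnt2 went from 20.0, 18.9 and 16.03 CPM to 115, 135 and 142 CPM (log2 fold change 2.83, SE 0.13, adjusted p = 1.37e-05), and Ggta1 from 23.9, 26.4 and 14.0 CPM to 106, 99.98 and 88.8 CPM (log2 fold change 2.20, SE 0.22, adjusted p = 0.000467). Both stood clear of the CON range in all 3 T + E2 mice. The other 18 tested transferases of this list included 1 that rose (B3glct) and none that fell.

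Sugar donor synthesis had 6 of 22 genes that rose and 2 that fell. Those that rose include Gne, Nans and Cmas, enzymes on the route from the first committed step of sialic acid synthesis to CMP-sialic acid, with log2 fold changes of 0.60 (adjusted p = 0.0119), 0.34 (adjusted p = 0.0468) and 0.95 (adjusted p = 0.00065). Nanp, which acts between Nans and Cmas, did not pass (log2 fold change 0.11, adjusted p = 0.781). Cmas was at 101, 106 and 94.9 CPM in the CON mice against 180.0, 217 and 188 CPM in the T + E2 mice. Renbp rose too (0.96 on the log2 scale). The successive enzymes of GDP-fucose synthesis moved apart. Gmds was at 69.8, 70.4 and 81.6 CPM against 129.8, 126 and 129 CPM (log2 fold change 0.79, SE 0.09, adjusted p = 0.00113), and Tsta3 was at 108, 109.7 and 129.5 CPM against 77.5, 74.2 and 67.5 CPM (log2 fold change -0.67, SE 0.11, adjusted p = 0.00418). Fpgt, of the fucose salvage route, fell by 0.37 on the log2 scale (adjusted p = 0.028). Among 12 Golgi and related transporters, Slc35d2 rose (0.59) and Slc35b4 and Slc35c2 fell (-0.88 and -0.72 on the log2 scale), whereas Slc35c1 and Slc35a1, the carriers of GDP-fucose and CMP-sialic acid, did not pass (adjusted p of 0.862 or more).

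Of 9 tested genes for sulfation and acetylation, 2 rose (Papss1 and Casd1) and 3 fell (Gal3st1, Chst1 and Papss2). Chst1, which sulfates galactose on keratan sulfate, was at 9.93, 15.6 and 7.80 CPM against 4.91, 3.35 and 5.94 CPM (log2 fold change -1.23, SE 0.31, adjusted p = 0.0266). This call ended without CON mouse 2 (adjusted p = 0.0699), T + E2 mouse 1 (0.0643) or T + E2 mouse 2 (0.0862). Gal3st1, the sulfatide enzyme of myelin, was at 1.38 to 1.59 CPM against 0.208 to 0.609 CPM (log2 fold change -1.79, SE 0.38, adjusted p = 0.0153), beside the lower neural markers, whose part was not tested. Without mouse 2 of both groups its adjusted p was 0.0655.

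Of 24 genes of mucus secretion, 12 were tested, 2 rose and 3 fell. Fcgbp, which encodes a protein of mucus gels, was at 49.5, 49.9 and 60.9 CPM in the CON mice against 14.7, 11.2 and 13.1 CPM in the T + E2 mice (log2 fold change -2.04, SE 0.14, adjusted p = 6.58e-05). Spdef, a transcription factor of prostate and goblet cells, and Creb3l4 fell by 0.94 and 0.99 on the log2 scale (adjusted p = 0.00985 and 0.00248). Agr2, a disulfide isomerase needed for mucin folding, was at 666, 735 and 866 CPM against 1655, 1617 and 1160 CPM (log2 fold change 0.97, SE 0.16, adjusted p = 0.00536). The list thus held genes that moved in both directions.

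Of 13 tested mucin-like glycoproteins, 4 rose and 3 fell. Cd24a, a short and heavily glycosylated surface protein, was at 608, 710.3 and 838 CPM against 299, 315 and 259.6 CPM (log2 fold change -1.30, SE 0.14, adjusted p = 0.000696). Prg4, the lubricin of joint fluid, was low, at 0.329 to 1.06 CPM against 1.74 to 2.62 CPM (log2 fold change 1.71, SE 0.43, adjusted p = 0.027), and lost its call without CON mouse 2 (adjusted p = 0.0754), CON mouse 3 (0.0972), T + E2 mouse 1 (0.0548) or T + E2 mouse 2 (0.0955). The remaining genes that rose (Prom1, Cd164 and Pdpn) or fell (Podxl and Mcam) had log2 fold changes between -0.66 and 0.65.

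**Figure D4:**
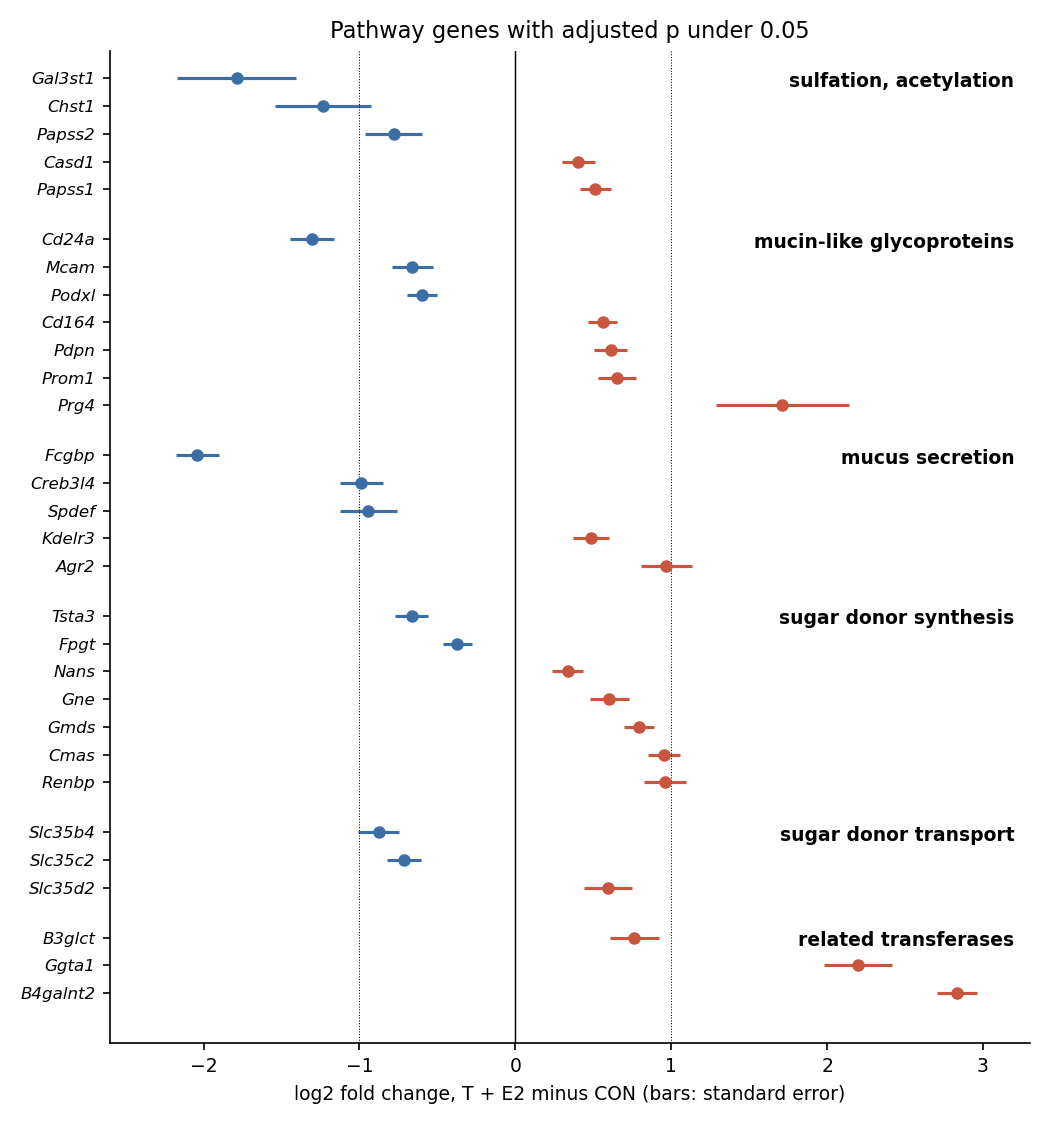
Log2 fold change (T + E2 minus CON, 3 mice each) with standard errors as bars for 30 of the 31 pathway genes outside the name pattern that had an adjusted p under 0.05, grouped by list. Red points were higher and blue points lower in the T + E2 group, dotted lines mark a log2 fold change of 1 in either direction, and B4galnt2, Ggta1 and Fcgbp lie beyond 2 in size.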

How the data were processed

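RNA from the prostates of 6 mice was analysed, 3 of the CON group and 3 of the T + E2 group, with groups and replicate numbers taken from the sample labels. The authors deposited 1 table of whole-number counts per gene without normalization, and the same table holds FPKM values. Each FPKM equalled the count divided by a fixed gene length and the library total. The submitters' processing notes name TopHat, Bowtie2 and HTSeq, and their versions, the annotation and the use of strand are not given in the sources used here. Every column of values belonged to 1 of the 6 mice. Coordinates are those of the deposited table, and 69 of the 86 members had the same start and end in GENCODE release M21 (GRCm38), which lacked 1 (Muc16). Exons of 36 members overlapped another gene there, 34 of them on the opposite strand. The gene lengths implied by FPKM differed from the exon lengths in that release for some members, in both directions. They were 10593 against 5467 bases for B4galt3 and 4541 against 7902 bases for Fut8. Levels, rankings, shares and sums per length depend on these lengths.

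Counts were tested with edgeR 4.0.16 (R 4.3.3), by quasi-likelihood with TMM scaling, without covariates, after filterByExpr (minimum count 10, minimum total 15), and Benjamini-Hochberg adjustment over 15580 genes. The biological coefficient of variation was 18.0%. With 3 against 3 mice an exact permutation test of a single gene cannot give a p under 0.1, so single-gene p-values come from this fit. Levels between genes, their ratios and their sums are given as FPKM, which is scaled by the library total without TMM, also where the groups are set side by side. Tests of single genes use counts with TMM scaling. A floor of 3 counts covers counting error only. No pair of same-group mice agreed within counting error (chi-square per degree of freedom 16.7 to 36.4), so none was counted as a repeat. The code was tested on simulated data. Named were members past both thresholds, detected mucins, the 3 members of each role with the highest mean FPKM, and up to 4 genes per list past both thresholds. B3gnt3, B4galt3, Galnt3, Galnt7, Galnt9, Galnt11, St3gal5 and other genes outside this rule were named after their values were seen. The members and lists were chosen with earlier results of these data known. The 15 alternatives comprised DESeq2 1.42.0, the tool in the study's methods, limma 3.58.1 on log2(FPKM + 0.1) and log2(FPKM + 1), other scalings and filters, the replicate block and leave-outs. A few genes are counted in the lists but not reported here by name.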

Additional observations from a re-analysis of the deposited data

How the results depend on the processing

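Muc19, Fut9, B3gnt7, Fut2, Fut8 and Fut4 kept direction and call in all 15 alternatives, with adjusted p no higher than 0.0084. The number of downregulated members was 5 in the leave-outs and 6 with DESeq2, which added Muc3a. The number of upregulated members was 3 in the main test, 1 with limma on log2(FPKM + 1), and 1 to 4 when 1 mouse was left out. It was 1 without CON replicate 3 or T + E2 replicate 1, where Galnt15 and Gcnt4 were both lost. Galnt15 lost its call in 8 alternatives and Gcnt4 in 13, in 1 of which it was filtered out, and the cause was not tested. Over all alternatives the log2 fold change was 0.81 to 1.51 for Galnt15 and 0.15 to 1.64 for Gcnt4. Members that gained a call in some leave-outs were Galnt9, B3gnt3, B3gnt2, B3gnt8 and C1galt1c1. Without replicate 2 of both groups, 8 members instead of 13 rose at any fold and 2 pathway genes instead of 4 were downregulated, in a test with fewer mice. Pathway genes upregulated were 5 with limma on log2(FPKM + 0.1) instead of 3, and those downregulated were 2 with limma on log2(FPKM + 1). When 1 mouse was left out these counts ran from 2 to 4 and from 3 to 6. The median log2 fold change of the members was 0.045 with limma on log2(FPKM + 1), where the pseudocount shrinks low genes, and 0.1055 to 0.1685 when 1 mouse was left out. Values that changed sign all belonged to genes without a call: B4galt6 was 0.17 without CON replicate 2, 0.02 without T + E2 replicate 1, 0.0053 without T + E2 replicate 2 and 0.25 without replicate 2 of both groups (down to -0.26 without 1 other mouse). Muc1 was -0.0543 without T + E2 replicate 3 (up to 0.82 without 1 other mouse and 0.89 without replicate 2 of both groups), Galnt2 -0.0043 without CON replicate 1 (up to 0.111 without 1 other mouse) and St8sia2 0.21 without replicate 2 of both groups. Over the tested genes, correlations of the deviations of same-numbered mice were -0.0516, 0.0275 and 0.0463. Handling shared by same-numbered mice was not tested. With the replicate block, 2 members were upregulated (Fut4 and Gcnt1, log2 fold change 1.08, adjusted p = 0.0347) and 5 downregulated, and 2 and 3 pathway genes. St6galnac2 and B4galt3 lay within 0.0296 to 0.137 and 0.034 to 0.191 in adjusted p over the alternatives. Mucins with few counts were below the filter and were not tested.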
